A study of Silurus meridionalis with 18 samples.

Results

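The southern catfish, *Silurus meridionalis*, was examined for potassium channel genes in 18 adult tissues. A gene model was taken as a member when its protein name in the deposited feature table held the words potassium voltage-gated channel, potassium channel, inward rectifier or calcium-activated potassium. This rule gave 124 of the 25390 gene models in the deposited expression table and used no measured value. It takes in pore-forming subunits, their helper subunits, 2 proteins named for a potassium channel tetramerisation domain, which form no pore, and the lysosomal channel TMEM175. Neural tissue was sampled as Olfactory_bulb, Retina, Brain and Telecephlon (so spelled in the labels, for the telencephalon, a part of the forebrain). The other tissues were Heart, Muscle, Kidney, Head_kidney, Spleen, Gill, Maxillary_barbel, Mandibular_barbel, Skin, Intestine, Liver, Pancreas, Ovary and Testis. All came from adult fish of a bottom-living habitat, with no treatment, strain or sex named, and the number of fish behind a library is not stated in the labels. With 1 library for every tissue, differences have no replicate check and are given untested, without p-values. Levels are FPKM as the authors computed them, fragment numbers scaled to the length of the gene model and to library size, so that genes can be set side by side.

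Potassium channels let potassium leave or enter a cell down its gradient, which sets the resting membrane potential and ends action potentials. Voltage-gated (Kv) channels open when the membrane is depolarised, calcium- and sodium-activated channels open when those ions rise inside the cell, inward rectifiers (Kir) hold the cell near the potassium equilibrium, and tandem pore domain (KCNK) channels carry a steady leak. In epithelia such as kidney tubule and gill, potassium channels recycle the ion that the sodium pump brings in, and in glia they take up potassium released by neurons.

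By list medians, the labelled tissues carried the markers of their own cell types, while single markers went the other way. In the testis list 4 of 8 gene models reached an FPKM of 1 in Testis. Its synaptonemal complex protein 3 stood at 0.499 in Testis and 6.05 in Kidney. In the skeletal muscle list, sarcoplasmic/endoplasmic reticulum calcium ATPase 1 stood at 2.58 in Muscle and 287 in Skin. Of 17 marker lists, all had their highest median log2(FPKM + 1) in a tissue that holds those cells. These medians ran from 15.31 for exocrine pancreas in Pancreas to 1.2 for the testis list in Testis. Many lists were incomplete, since INS and other listed symbols were not matched to a gene model. In the ionocyte list 4 symbols were matched and in the kidney tubule list 5, and both lists named more. The neuron list had a median of 7.25 in Telecephlon, 6.79 in Brain, 6.64 in Olfactory_bulb and 5.71 in Retina, against 1.26 in Intestine and at most 0.35 in the other 13 tissues. The skeletal muscle list stood at 6.80 in Muscle and at 3.27 in Skin, where 12 of its 18 gene models had an FPKM of at least 1. The estimated depth was 12800000 steps in Skin and 19300000 steps in Muscle, between 40900000 and 45800000 steps in Telecephlon, Retina, Olfactory_bulb, Intestine and the barbels, and between 97500000 and 103000000 steps in Brain, Gill, Head_kidney, Heart, Kidney, Liver, Pancreas and Spleen, where a step is the smallest common unit of FPKM times coding length. Ovary and Testis gave 50100000 and 50600000 steps, and there a step may be a fragment instead of a read. In every library most low values were not whole multiples of the step. The share that were ran from 20.3% in Olfactory_bulb to 31.0% in Muscle. Whole reads were thus not recovered, and the depths are rough estimates. Comparisons of Telecephlon or Retina with Brain, and of Heart with Muscle, join libraries of different estimated depth. Tissue and depth therefore cannot be told apart in them.

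Potassium channel genes were mostly low genes of the neural tissues. Of the 124 members, 115 had an FPKM of at least 1 in some tissue, 83 of at least 5, 57 of at least 10 and 9 of at least 50. The 9 that stayed under 1 in every tissue were the KCNQ1-type models C0J45_09587 and C0J45_09588, and single models named for KCNH1b, inward rectifier 1, KCNA10-like, tsha2-like, KCNS2-like, KCNK12 and KCNK4-like. Among the 115, the median of the highest FPKM was 9.68, against 18.5 over the 22197 genes of the table that reached 1. The highest level lay in Brain, Telecephlon, Olfactory_bulb or Retina for 83 of 115 members (72.2%), against 34.3% of all genes. A median log2(FPKM + 1) in these 4 neural tissues at least 1 above that in the other 14 was seen in 77 members (67.0%), against 29.6% of all genes, and the reverse in 2 members (1.74%), against 3.38%. The log2(FPKM + 1) scale understates differences of low genes. In tissue RNA, fewer cells of a type and less RNA per cell cannot be told apart. The median difference between the neural and other tissues was 1.60 for the members and 0.43 for all genes. With libraries scaled to equal sums, the neural median was at least 1 log2 higher in 82 of 117 members and 9714 of 22378 genes.

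By tissue, 84 members (67.7%) had an FPKM of at least 1 in Brain, 83 in Telecephlon, 81 in Olfactory_bulb and 53 in Retina. Outside the neural tissues the count was highest in Intestine, at 26 members (21%), with 23 each in Gill and Kidney. It was lowest in Testis, Liver and Pancreas, at 6, 4 and 3 members (4.84%, 3.23% and 2.42%). Of all genes, 34.0%, 41.4% and 22.6% reached this level in these tissues, and 59.0% did so in Intestine. In Retina 42.7% of members reached it, against 62.0% of all genes. In Brain the share of all genes at this level was 65.5%, and in Kidney, where 18.5% of members reached it, it was 62.4%. The share of members was thus close to that of all genes in Brain and lower in Kidney. The summed FPKM of the members was 925 in Olfactory_bulb, 756 in Telecephlon, 694 in Retina, 536 in Brain, 244 in Heart, 238 in Kidney and 11.6 in Pancreas. No member reached an FPKM of 1 in all 18 tissues, while 2598 genes of the table did.

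**Figure D1:**
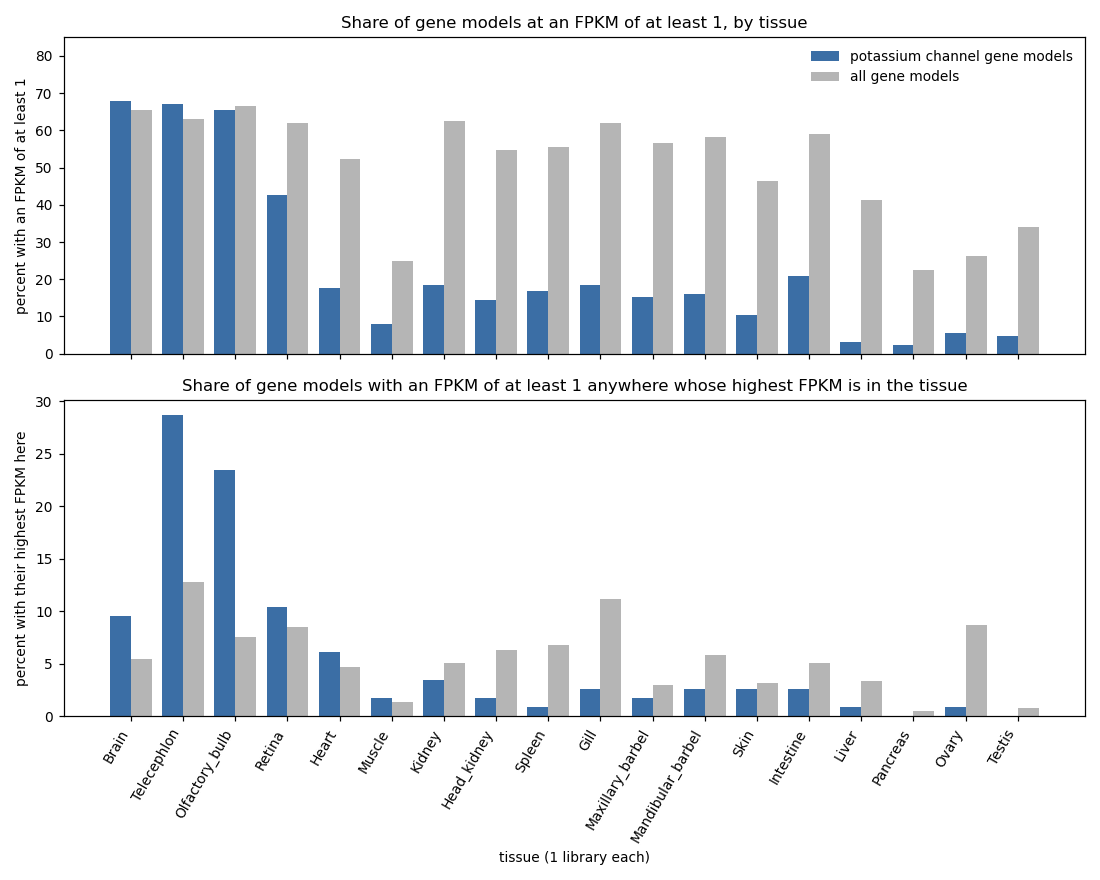
Upper bars show the percent of the 124 potassium channel gene models (blue) and of all gene models (grey) with an FPKM of at least 1 in each tissue, and lower bars the percent of those reaching 1 anywhere whose highest FPKM is in that tissue. In the brain libraries the blue and grey bars are close (67.7% and 65.5% in Brain), and in the other tissues the blue bars are lower. Telecephlon and Olfactory_bulb hold the highest level of 33 and 27 members (28.7% and 23.5%, against 12.8% and 7.52% of all genes).

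Members were also unevenly spread. Tau, which is 0 for a gene at the same level everywhere and 1 for a gene found in a single tissue, was at least 0.85 in 63 of 115 members (54.8%), against 20.9% of all genes, with medians of 0.86 and 0.61. With a pseudocount of 0.1 in place of 1 this count was 27 of 115 members and 2240 of 22197 genes. A stricter rule asked for a level of 5 FPKM or more and, with 1 added to both, a lead of 4-fold or more over the next tissue. By it 10 of 83 members were enriched in 1 tissue, against 13.1% of all genes, a share near the background. Of the 10, 5 were enriched in Retina, 2 in Heart and 1 each in Brain, Telecephlon and Olfactory_bulb. The split of all enriched genes by tissue is not given here. Telecephlon, Olfactory_bulb and Brain were the highest tissues of 33, 27 and 11 members. These were 28.7%, 23.5% and 9.57% of members, against 12.8%, 7.52% and 5.47% of all genes. In each of these tissues 1 member stood 4-fold above all other libraries.

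**Figure D2:**
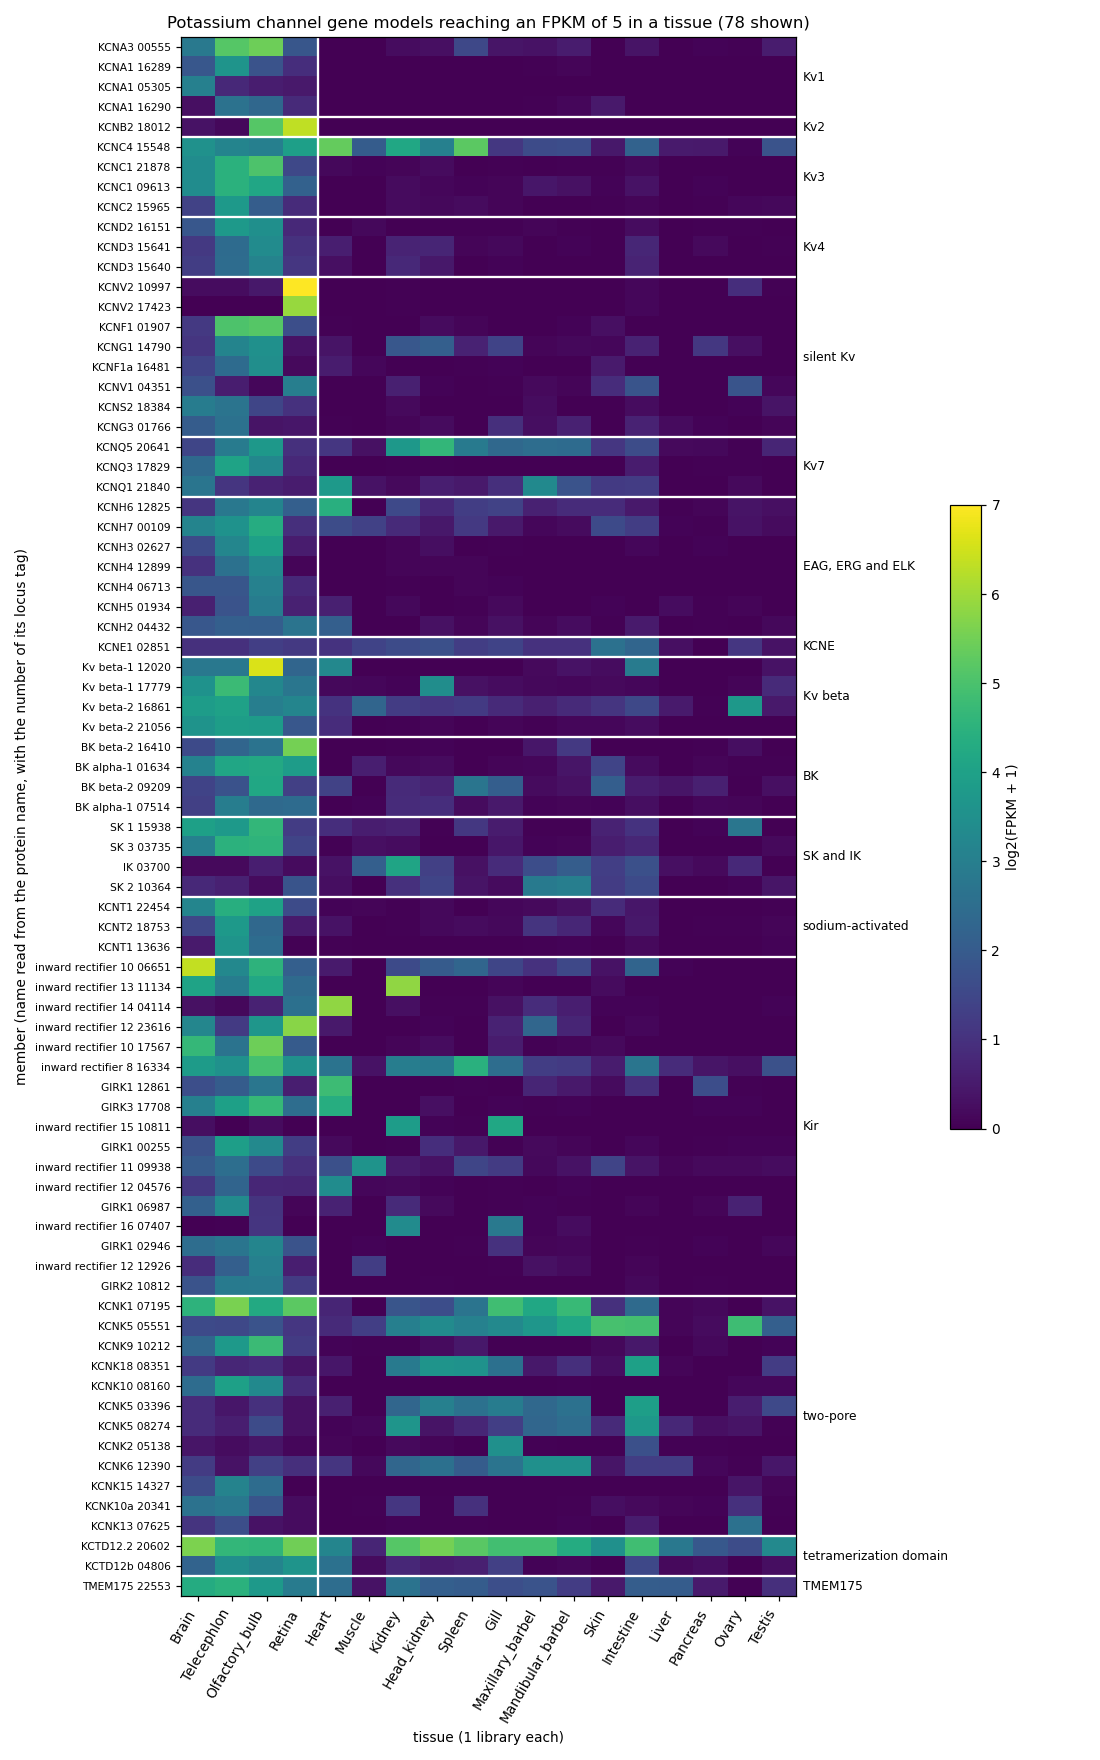
Each row is 1 of 78 members, out of the 83 reaching an FPKM of 5 in some tissue, grouped by channel family, each column is 1 tissue library, and colour gives log2(FPKM + 1). The 4 neural tissues stand left of the white line, where most voltage-gated, sodium-activated and G protein-activated members are bright, while the tandem pore domain family reaches across the epithelial tissues on the right.

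The Shaker-type Kv1 (KCNA) channels, which set the threshold of axons and dampen repeated firing, numbered 13. Of these 11 reached an FPKM of 1, and 9 of the 11 were highest in a neural tissue, against 34.3% of all genes. All but 1 of the 13 gene models had a single coding exon. KCNA3-like (C0J45_00555) was the highest, at 43.0 in Olfactory_bulb, 34.8 in Telecephlon, 6.06 in Brain and 2.66 in Retina, and at most 1.86 in the other tissues. KCNA1 was present as several gene models with different leading tissues. The copy C0J45_05305 stood at 7.25 in Brain and at most 0.754 elsewhere, while C0J45_16289 stood at 11.3 in Telecephlon, 2.76 in Brain, 2.45 in Olfactory_bulb and 0.885 in Retina. The only Kv1 member highest in Muscle was KCNA7-like (C0J45_12750), a channel known in mammals from skeletal muscle, at 1.48 there and 0.102 in Skin. A Shaker-related gene model named tsha2-like (C0J45_16288) was highest in the barbels, at 3.62 in Maxillary_barbel and 2.39 in Mandibular_barbel, and reached 1.80 in Spleen and 1.61 in Intestine.

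Kv2 (KCNB) channels carry the delayed rectifier current of many neurons. The silent subunits of the KCNF, KCNG, KCNS and KCNV types form no channel alone and join Kv2 subunits. In mammals KCNV2 is known from rod and cone photoreceptors. Retina held the highest levels of both kinds. The KCNV2 gene model C0J45_10997 (chromosome 11 from 21819948 to 21822383, 2 coding exons) had an FPKM of 126 in Retina, the highest value of any member, and 0.166 in Brain, 0.173 in Telecephlon, 0.363 in Olfactory_bulb and at most 0.889, in Ovary, elsewhere. The other KCNV2 copy, C0J45_17423 (chromosome 20 from 355478 to 357410), stood at 59.2 in Retina and was listed at 0 in 13 tissues, with 0.0841 in Intestine as its next-highest value. In both copies Retina was therefore far above every other library.

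KCNB2 (C0J45_18012) was high in Retina (79.3) and Olfactory_bulb (34.4), and stood at 0.256 in Brain, 0.117 in Telecephlon and at most 0.0184 in the 14 other tissues. The photoreceptor marker list had a median log2(FPKM + 1) of 9.36 in Retina, where 10 of its 11 gene models reached an FPKM of 1, and of 0 in Olfactory_bulb, where 0 of 11 did. The part of photoreceptor content in the Retina levels was not tested. A KCNV1 gene model (C0J45_04351) was also highest in Retina, at 7.02, with 2.56 in Intestine, 2.54 in Ovary and 2.30 in Brain.

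Several silent subunits of other types led in Olfactory_bulb. KCNF1 (C0J45_01907) stood at 34.6 in Olfactory_bulb and 32.3 in Telecephlon, against 2.19 in Retina and 1.23 in Brain, and its copy KCNF1a (C0J45_16481) at 10.1, 4.50, 0.129 and 1.66 in the same tissues. Both KCNF1 copies thus shared an order of Olfactory_bulb, Telecephlon and Brain. KCNG1 (C0J45_14790) stood at 10.5 in Olfactory_bulb and 7.86 in Telecephlon, and also at 3.38 in Head_kidney and 2.73 in Kidney. Of the KCNG4 models, C0J45_12168 was highest in Retina, at 3.01, and C0J45_08884 was the only silent subunit highest outside the neural tissues, at 1.97 in Gill and 1.26 in Mandibular_barbel.

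**Figure D3:**
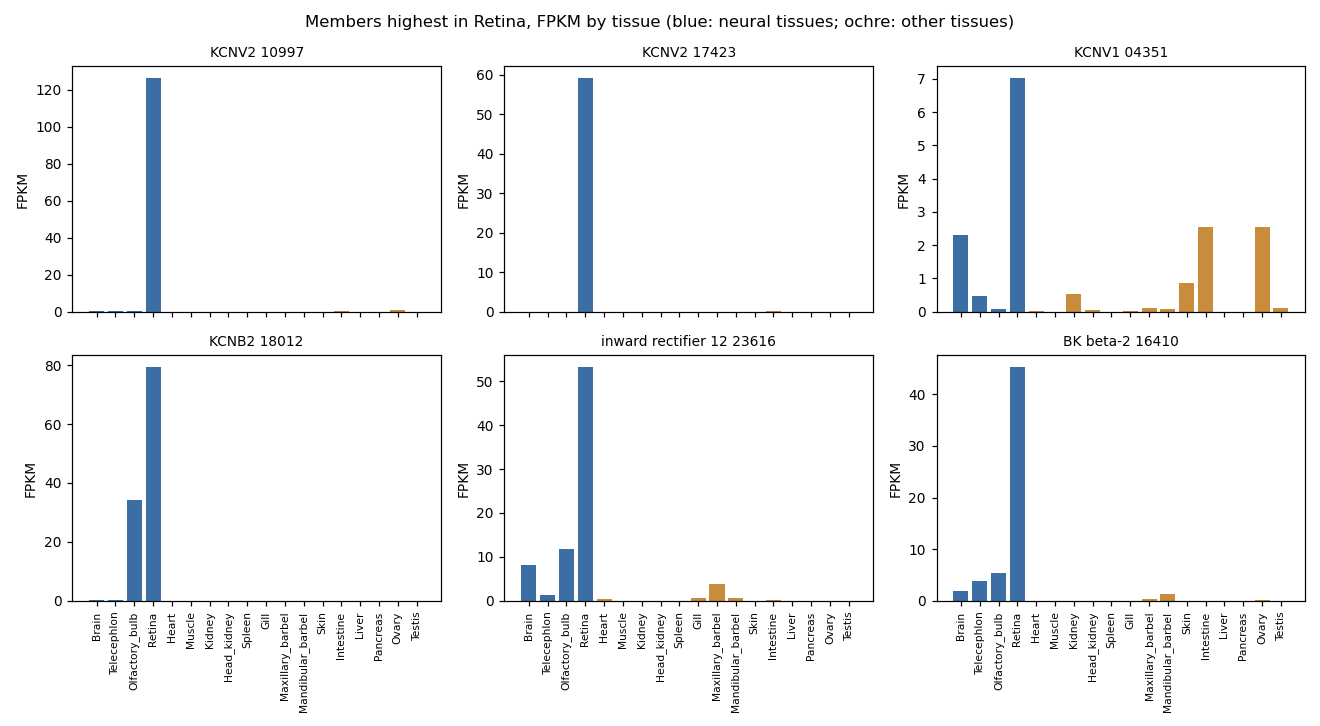
Bars show the FPKM of 6 members in each of 18 tissue libraries, neural tissues in blue and other tissues in ochre, with a linear axis of its own in each panel. All 6 are highest in Retina, with both KCNV2 copies near 0 elsewhere and KCNB2 also at 34.4 in Olfactory_bulb.

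Kv3 (KCNC) channels let neurons fire at high rates, and Kv4 (KCND) channels carry the A-type current of dendrites and heart. All 6 Kv3 members and all 5 Kv4 members had a neural median at least 1 log2 above that of the other tissues. Of all genes 29.6% did. The KCNC1 copies stood at 32.2 (C0J45_21878) and 16.7 (C0J45_09613) in Olfactory_bulb, 21.2 and 21 in Telecephlon, 9.64 and 9.68 in Brain, and 1.85 and 3.48 in Retina. These copies had nearly the same levels in Telecephlon and in Brain. KCNC4 (C0J45_15548) was the Kv3 member highest outside the neural tissues, with 40.0 in Heart, 36.6 in Spleen, 16.9 in Kidney and 7.32 in Head_kidney, beside 14.4 in Retina, 10.6 in Brain, 7.91 in Telecephlon and 7.05 in Olfactory_bulb. It reached an FPKM of 1 in 14 of 18 tissues. KCND2 (C0J45_16151) stood at 12.5 in Telecephlon, 10.2 in Olfactory_bulb, 2.76 in Brain, 0.75 in Retina and at most 0.171 elsewhere. The highest Kv4 value in Heart was 0.514, for KCND3 (C0J45_15641), which stood at 9.39 in Olfactory_bulb.

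Kv7 (KCNQ) channels carry the slow M-current of neurons and, as KCNQ1, the slow repolarising current of the heart. KCNQ3 (C0J45_17829), an M-current subunit in mammals, stood at 15.6 in Telecephlon, 8.42 in Olfactory_bulb, 4.23 in Brain, 0.752 in Retina and at most 0.453, in Intestine, elsewhere. The brain libraries were thus its high tissues, with Telecephlon first. KCNQ1 (C0J45_21840) was highest in Heart, at 12.5, followed by Maxillary_barbel at 9.01, Brain at 5.55 and Mandibular_barbel at 2.43. KCNQ5 (C0J45_20641) was highest in Head_kidney, at 23.7, with 12.4 in Olfactory_bulb, 12.2 in Kidney, 6.53 in Telecephlon and 6.30 in Spleen. Its lead in Head_kidney, 0.88 on the log2 scale, was 0.06 with libraries scaled to equal sums and 1.06 with equal upper quartiles. Its copies C0J45_19507 and C0J45_01492 stayed at or under 2.57 in every tissue.

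The KCNH family comprises the EAG, ERG and ELK channels, of which ERG carries the rapid repolarising current of the heart. Of 14 members 13 reached an FPKM of 1, and 11 of these were highest in a neural tissue, 6 of them in Olfactory_bulb. The shares of all genes were 34.3% and 7.52%. KCNH7 (C0J45_00109) stood at 19.2 in Olfactory_bulb, 10.9 in Telecephlon and 7.86 in Brain, and KCNH3 (C0J45_02627) at 14.9, 8.23 and 1.95. Olfactory_bulb was the highest tissue of both. KCNH6 (C0J45_12825), an ERG-type channel, was highest in Heart at 20.2, against 8.01 in Olfactory_bulb, 5.94 in Telecephlon, 3.32 in Retina and 0.0078 in Muscle. KCNH2, the main cardiac ERG channel of mammals, had a gene model (C0J45_04432) at 3.32 in Heart, 5.44 in Retina and 3.33 in Telecephlon. KCNH6 thus had the higher level of these 2 in Heart. The single KCNE member, KCNE1-like (C0J45_02851), a small helper subunit that slows KCNQ1 in mammals, was highest in Skin, at 5.15, and stood at 3.83 in Intestine, 2.26 in Head_kidney and 1.03 in Heart.

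Kv beta subunits sit on the inner side of Kv1 channels, and some of these subunits speed the inactivation of the channel. Kv beta-1 (C0J45_12020, chromosome 13 from 2899317 to 2978911, 15 coding exons) stood at 96.5 in Olfactory_bulb, the second-highest value of any member, and at 8.70 in Heart, 6.58 in Intestine, 6.02 in Brain, 5.91 in Telecephlon and 3.84 in Retina. Its copy C0J45_17779 was instead highest in Telecephlon, at 26.4, and stood at 10.8 in Brain, 9.77 in Head_kidney, 8.47 in Olfactory_bulb and 5.68 in Retina. The copies thus led in different parts of the brain. A further model, C0J45_12021, lies next to C0J45_12020 on the same strand with 3218 bases between them, carries no listed protein domain, and had 1.40 in Heart and at most 0.0153 elsewhere. Kv beta-2 (C0J45_16861) stood at 15.1 in Telecephlon, 13.6 in Brain, 12.3 in Ovary, 8.17 in Retina and 3.89 in Muscle. Ovary led it under equal upper quartiles, with a log2 ratio of Telecephlon to the next tissue of -1.85 in place of 0.14.

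Among the calcium-activated channels, the large-conductance (BK) pore subunit alpha-1 (C0J45_01634) stood at 17.6 in Olfactory_bulb, 16.7 in Telecephlon, 13.6 in Retina and 7.52 in Brain, and at most 1.68, in Skin, elsewhere. A further alpha-1 model (C0J45_07514) stood at 6.87 in Telecephlon, 4.45 in Retina, 4.26 in Olfactory_bulb, 1.49 in Brain and at most 0.883 elsewhere. The helper subunits, which tune the calcium sensitivity and inactivation of BK, differed from one another in their leading tissue. The model C0J45_16410, named beta-2, stood at 45.3 in Retina, 5.40 in Olfactory_bulb, 3.85 in Telecephlon and 1.95 in Brain. The ball and chain domain of beta-2 subunits was listed for C0J45_09209 and not for C0J45_16410. Which beta type C0J45_16410 is was not tested. The beta-2-like model C0J45_09209 stood at 17.1 in Olfactory_bulb, 5.58 in Spleen and 1.52 in Retina, and the beta-3-like model C0J45_05714 at 1.5 in Mandibular_barbel and at most 0.317 elsewhere. The pore subunit model C0J45_01634 was thus shared over the neural tissues, and the helpers were uneven among them. The beta-2-like helper had the same leading tissue as that model, Olfactory_bulb.

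The small-conductance SK channels give neurons their after-hyperpolarisation, and the intermediate-conductance channel IK (KCNN4) works in epithelia and blood cells of mammals. SK channel 1 (C0J45_15938) stood at 23.6 in Olfactory_bulb, 14.7 in Brain, 5.71 in Ovary and 12.7 in Telecephlon. SK channel 3 (C0J45_03735) stood at 22.5 in Olfactory_bulb, 21.7 in Telecephlon and 7.24 in Brain. Ovary led SK channel 1 under equal upper quartiles, with a log2 ratio of Olfactory_bulb to the next tissue of -0.20. SK channel 2-like (C0J45_10364) was highest in the barbels, at 7.03 in Mandibular_barbel and 6.41 in Maxillary_barbel, with 0.147 in Olfactory_bulb. IK (C0J45_03700) was highest in Kidney, at 15.9, followed by 3.31 in Muscle and 3.20 in Mandibular_barbel, and was at most 0.509 in the neural tissues. Its lead in Kidney, 1.97 on the log2 scale, was 0.11 with equal upper quartiles. The sodium-activated channels (KCNT), which respond to sodium entry during firing, were all highest in Telecephlon, as were 12.8% of all genes. KCNT1 stood there at 20.1 (C0J45_22454) and 11.3 (C0J45_13636) and KCNT2-like at 12.5 (C0J45_18753), against 8.07, 0.427 and 1.79 in Brain. The summed FPKM of the family was 43.9 in Telecephlon, 24.0 in Olfactory_bulb and 10.3 in Brain. The lead of C0J45_22454 over its next tissue was 0.38 on the log2 scale.

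The inward rectifiers led in neural, muscular and epithelial organs. Of 18 members 17 reached an FPKM of 5. Of these 10 were highest in a neural tissue, 3 in Heart, 2 in Kidney and 1 each in Gill and Muscle. Of all genes reaching an FPKM of 1, 34.3% were highest in a neural tissue. Heart led 4.72% of them, Kidney 5.10%, Gill 11.1% and Muscle 1.35%. Inward rectifier 10, which buffers potassium in glia, led Brain: C0J45_06651 stood at 81.5 in Brain, 21.9 in Olfactory_bulb, 8.68 in Telecephlon and 3.32 in Retina, and at most 3.90 elsewhere. Its copy C0J45_17567 stood at 42.9 in Olfactory_bulb, 24.5 in Brain, 3.04 in Retina and 5.41 in Telecephlon, and at most 0.435 elsewhere. Brain and Olfactory_bulb were thus the high tissues of both copies. The myelin and glia marker list, with all 7 of its gene models at an FPKM of 1 or more in each of the 4 neural tissues, had a median log2(FPKM + 1) of 10.16 in Brain and 6.65 in Olfactory_bulb. In Telecephlon it was 6.34 and in Retina 4.66. Its part in the differences between these libraries was not tested.

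The highest member of Heart was an inward rectifier, the second was KCNC4 (C0J45_15548) at 40.0, and the third was again an inward rectifier. Inward rectifier 14 (C0J45_04114, chromosome 4 from 13346383 to 13348829, a partial gene model), of the strongly rectifying type, stood at 55.8 in Heart, 5.02 in Retina and at most 0.861 in the 16 other tissues, and was listed at 0 in Muscle. A G protein-activated inward rectifier 1 (GIRK1) model, C0J45_12861, whose relatives slow the heartbeat under vagal control, stood at 26.7 in Heart, 5.78 in Olfactory_bulb, 3.07 in Telecephlon, 2.20 in Brain and 2.17 in Pancreas. Its lead over the next tissue, 2.03 on the log2 scale, was 1.62 with libraries scaled to equal sums and 0.90 with equal upper quartiles, so the 4-fold lead was lost under both scalings. GIRK3 (C0J45_17708) stood at 24.8 in Olfactory_bulb, 19.4 in Heart, 14.8 in Telecephlon, 7.32 in Brain and 4.63 in Retina. The other 3 GIRK1 models were brain genes, with at most 0.584 in Heart. The cardiac muscle marker list had a median of 9.54 in Heart, where 8 of its 10 gene models reached an FPKM of 1, and at most 1.85, in Skin, elsewhere. Its part in the Heart levels was not tested.

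The 3 gene models named inward rectifier 12-like each led in another tissue. C0J45_23616 stood at 53.2 in Retina, 11.7 in Olfactory_bulb, 8.25 in Brain and 3.92 in Maxillary_barbel, C0J45_04576 at 9.50 in Heart and 3.79 in Telecephlon, and C0J45_12926 at 7.30 in Olfactory_bulb and 3.34 in Telecephlon. The ATP-sensitive channel subunits 11 and 8 couple membrane potential to metabolism. Inward rectifier 11 (C0J45_09938) was the highest member of Muscle, at 11.2, followed by 4.72 in Telecephlon, 3.03 in Brain and 2.26 in Heart. Its lead in Muscle, 1.09 on the log2 scale, was 0.36 with libraries scaled to equal sums and 3.22 with equal upper quartiles. Inward rectifier 8 (C0J45_16334), known from blood vessel walls, stood at 29.7 in Olfactory_bulb, 21 in Spleen, 13.3 in Brain, 10.7 in Telecephlon and 10.4 in Retina.

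Epithelial inward rectifiers were found in Kidney and Gill. Inward rectifier 13 (C0J45_11134, chromosome 12 from 1780666 to 1783266, a partial gene model), known in mammals from choroid plexus and retinal pigment epithelium, stood at 56.2 in Kidney, 17.4 in Olfactory_bulb, 15.8 in Brain, 4.40 in Retina and 6.61 in Telecephlon, and at most 0.157 in the 13 other tissues. Inward rectifier 15 (C0J45_10811) stood at 17.1 in Gill and 13.7 in Kidney and at most 0.195 elsewhere. Inward rectifier 16 (C0J45_07407) stood at 9.47 in Kidney, 6.17 in Gill, 1.12 in Olfactory_bulb and at most 0.177 elsewhere. So 15 and 16 were shared by Gill and Kidney and 13 was not, with 0.0591 in Gill. The ionocyte marker list had medians of 4.85 in Gill, 3.13 in Kidney and at most 1.11 in the other tissues, and 4 of its 6 gene models reached an FPKM of 1 in each of Gill and Kidney. The kidney tubule list stood at 6.82 in Kidney, with 7 of 7 gene models, and at most 0.75 elsewhere. Their part in these levels was not tested.

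**Figure D4:**
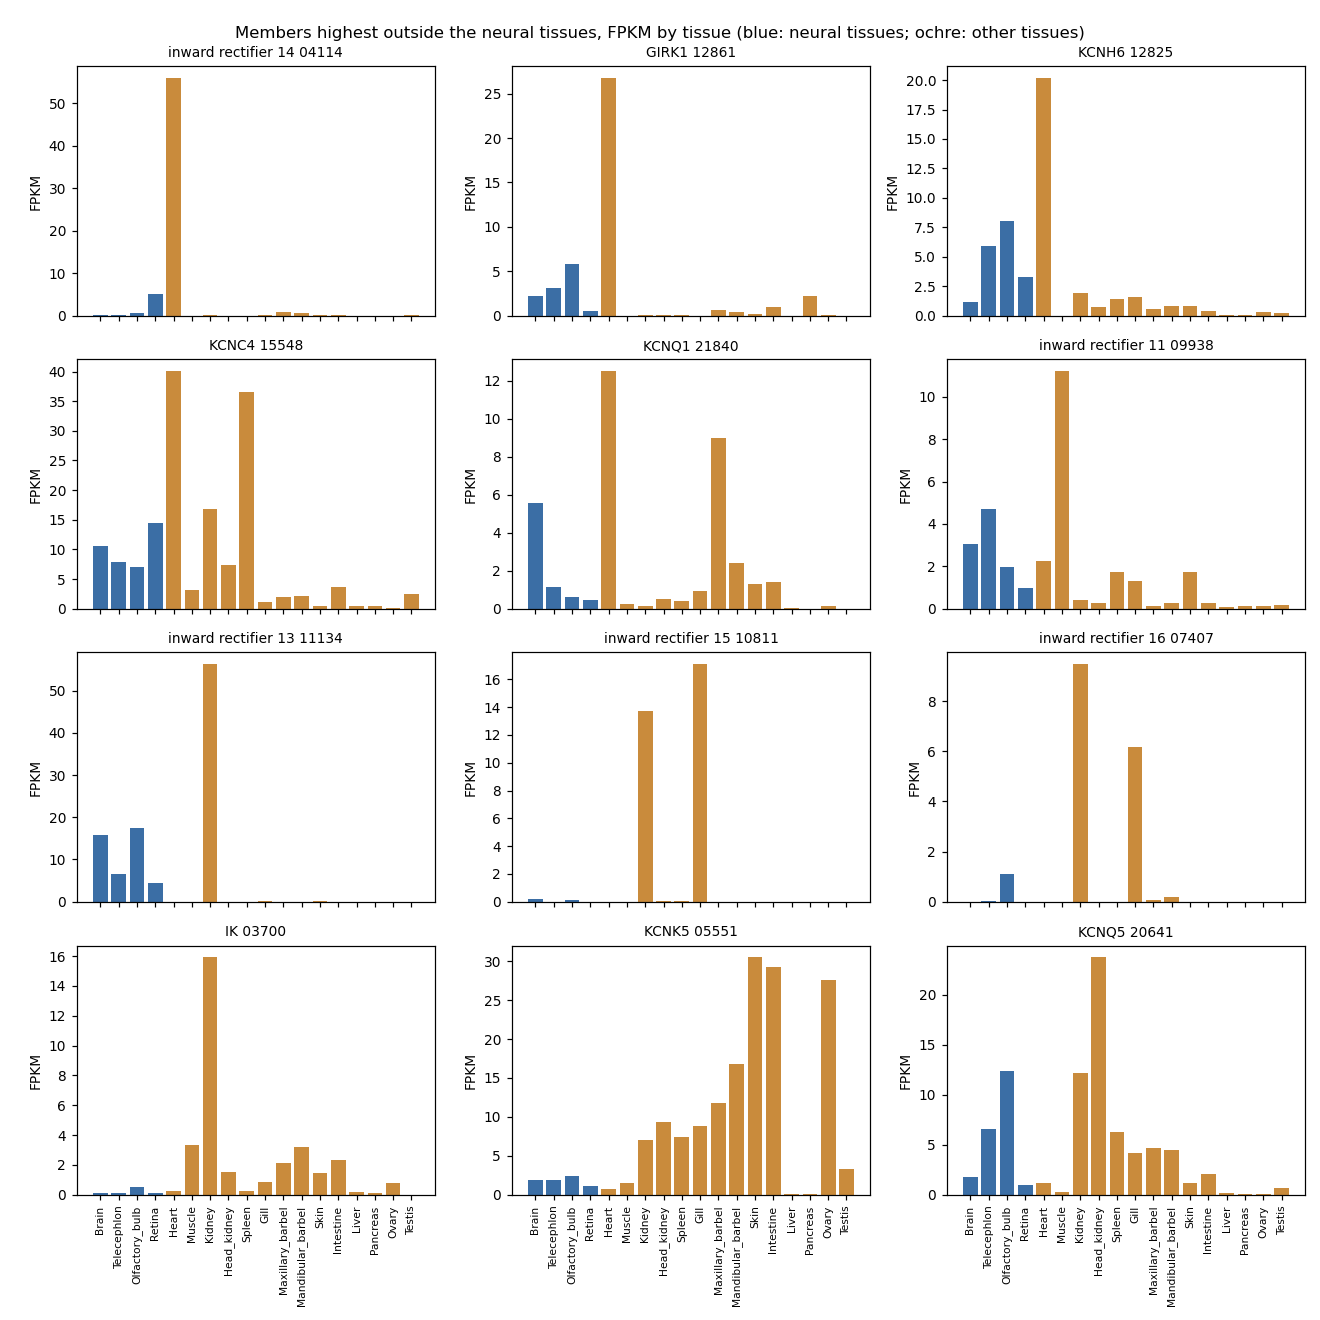
Bars show the FPKM of 12 members whose highest tissue lies outside the neural tissues, in each of 18 tissue libraries, neural tissues in blue and other tissues in ochre, with a linear axis of its own in each panel. Heart leads the first 5 panels, Muscle leads inward rectifier 11 at 11.2, and inward rectifiers 15 and 16 stand above 1.12 in Kidney and Gill alone, while KCNK5 is spread over Skin, Intestine and Ovary.

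The tandem pore domain (KCNK) leak channels had leading tissues of many kinds. Of 21 members 19 reached an FPKM of 1 and 7 of these were highest in a neural tissue, a share near the 34.3% of all genes, and the leading tissues numbered 11. KCNK1 (C0J45_07195), a weakly conducting leak channel, stood at 47.4 in Telecephlon, 36.4 in Retina, 28.0 in Gill, 25.2 in Mandibular_barbel, 22 in Brain, 18.1 in Olfactory_bulb and 17.0 in Maxillary_barbel, against 2.62 in Kidney and 0.651 in Heart. KCNK9 (C0J45_10212), an acid-sensitive leak channel of neurons, stood at 26.3 in Olfactory_bulb, 12.9 in Telecephlon and 3.98 in Brain and at most 1.32 elsewhere. KCNK1 was thus shared by neural tissue, Gill and barbels, while KCNK9 was above 1.32 in the brain libraries alone among these 18.

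KCNK5, known in mammals from kidney and gut epithelium, was present as 3 gene models with high values outside the neural tissues. C0J45_05551 stood at 30.5 in Skin, 29.2 in Intestine, 27.5 in Ovary, 16.8 in Mandibular_barbel and 11.8 in Maxillary_barbel, and between 1.17 and 2.43 in the neural tissues. C0J45_03396 stood at 14.1 in Intestine and 7.21 in Head_kidney, and C0J45_08274 at 12.4 in Intestine and 11.5 in Kidney. Intestine was a high tissue of all 3. The first 2 of these were the members with a neural median at least 1 log2 below that of the other tissues (differences of -1.64 and -1.29), and both had no listed protein domain, so the name rests on the deposited protein name alone. The median of the keratinocyte marker list was highest in Skin, at 6.55, with 5.24 in Mandibular_barbel and 5.05 in Maxillary_barbel. In these tissues 8, 8 and 7 of its 11 gene models reached an FPKM of 1. The summed FPKM of the list went the other way, at 6118 in Skin, 28310 in Mandibular_barbel and 34479 in Maxillary_barbel. The part of this list in the KCNK5 levels was not tested. With equal upper quartiles Ovary in place of Skin led C0J45_05551, by a log2 ratio of Skin over the next tissue of -1.08.

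Other leak channels led in various organs. KCNK2-like (C0J45_05138), of the mechanically sensitive TREK type, stood at 10.5 in Gill, 2.29 in Intestine and at most 0.309 elsewhere, while KCNK2 (C0J45_16752) was a brain gene, at 3.97 in Telecephlon and 0.0213 in Gill. KCNK18 (C0J45_08351) stood at 14.7 in Intestine, 11.3 in Head_kidney, 10.8 in Spleen and 6.26 in Kidney. KCNK6 (C0J45_12390) stood at 10.4 in both barbels and 5.49 in Gill. The 3 models named KCNK13 or KCNK13-like led in different organs, at 5.11 in Ovary (C0J45_07625), 2.58 in Spleen (C0J45_13738) and 2.17 in Liver (C0J45_11600). These leak channels therefore took their highest values in Gill, gut, barbels, Ovary, Spleen, Liver and, for KCNK2 (C0J45_16752), Telecephlon.

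The tetramerisation domain proteins differed in breadth. KCTD12.2 (C0J45_20602), whose mammalian relatives bind GABA-B receptors and form no pore, ran from 0.659 in Muscle through a median of 23.2 to 47.8 in Brain, reached 1 in 17 of 18 tissues, and was the highest member of Gill, Head_kidney, Liver, Pancreas, Testis and Maxillary_barbel. KCTD12b (C0J45_04806) stood at 11.3 in Retina, 9.97 in Telecephlon and 7.92 in Olfactory_bulb, and was listed at 0 in Skin and Ovary. KCTD12.2 no longer led in Brain under equal upper quartiles (log2 ratio to the next tissue of -0.02), nor TMEM175 in Telecephlon (-0.11). TMEM175 (C0J45_22553), a channel of lysosomes and not of the cell surface, stood at 21.1 in Telecephlon, 18.8 in Brain and 12.8 in Olfactory_bulb and between 0.0243 and 6.57 in the others. It was the second-highest member of Liver, at 3.12.

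Heart against Muscle sets 2 kinds of striated muscle side by side. Of 27 members reaching an FPKM of 1 in either, 16 (59.3%) were at least 2-fold higher in Heart, against 76.0% of all genes, and 6 (22.2%) were at least 2-fold higher in Muscle, against 3.60%. The median log2 ratio was 1.37 for the members and 1.61 for all genes. The largest ratios toward Heart were those of inward rectifier 14 (C0J45_04114, 5.83), GIRK1 (C0J45_12861, 4.79) and KCNH6 (C0J45_12825, 4.39), and the largest toward Muscle those of inward rectifier 11 (C0J45_09938, -1.91) and IK (C0J45_03700, -1.77). With equal upper quartiles the split was 16 to 10 and the medians were 1.3 for the members and 0.83 for all genes, which turned their order. A pseudocount of 0.1 turned it too, with 3.68 and 2.66. Muscle lists 83 of the 124 members at 0, and Heart 44, against 10342 and 3997 of all 25390 genes.

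Retina against Brain compares neural tissues with different cells. Of 92 members, 13 (14.1%) were at least 2-fold higher in Retina, against 11.9% of all genes, and 35 (38.0%) in Brain, against 19.1%. Their median log2 ratio was -0.82, against -0.19 for all genes. The members higher in Retina were led by KCNV2 (C0J45_10997, 6.77, and C0J45_17423, 5.89) and KCNB2 (C0J45_18012, 6.0). Those higher in Brain were led by inward rectifier 10 (C0J45_06651, -4.26), SK channel 1 (C0J45_15938, -2.73) and the other inward rectifier 10 copy (C0J45_17567, -2.65). The share above 2-fold in Retina was near that of all genes, and the 13 ratios ran from 1.02, for KCNH6 (C0J45_12825), to 6.77.

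Telecephlon against Brain compares a brain part with the library labelled Brain, whose dissection is not described in the labels. Of 92 members, 39 (42.4%) were at least 2-fold higher in Telecephlon, against 11.9% of all genes, and 10 (10.9%) in Brain, against 9.60%. The median log2 ratio was 0.50, against 0.05 for all genes. The largest ratios toward Telecephlon were KCNF1 (C0J45_01907, 3.90), KCNT1 (C0J45_13636, 3.11) and KCNC2 (C0J45_15965, 2.40, with 12.7 in Telecephlon and 1.58 in Brain). Toward Brain they were inward rectifier 10 (C0J45_06651, -3.09), KCNA1 (C0J45_05305, -2.23) and inward rectifier 12-like (C0J45_23616, -2.01). With equal upper quartiles the split was 22 to 11, with a median of -0.18 for all genes. The neuron list stood at 7.25 in Telecephlon and 6.79 in Brain, with 12 and 11 of 13 gene models at an FPKM of 1, and the myelin and glia list at 6.34 and 10.16, with 7 of 7 in both. Their part in the split was not tested.

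Gill against Kidney compares organs of salt balance. Of 29 members, 4 (13.8%) were at least 2-fold higher in Gill, against 17.8% of all genes, and 8 (27.6%) in Kidney, against 14.3%. With libraries scaled to equal sums the split was 7 to 8, with a median of 0.43 for all genes in place of 0.14. The members higher in Gill were KCNK2-like (C0J45_05138, 3.35), KCNK1 (C0J45_07195, 3.0), KCNG4-like (C0J45_08884, 1.32) and BK beta-2-like (C0J45_09209, 1.26). The largest ratios toward Kidney were those of inward rectifier 13 (C0J45_11134, -5.76), IK (C0J45_03700, -3.21) and KCNC4 (C0J45_15548, -3.03). A leak channel thus led on the Gill side and an inward rectifier on the Kidney side.

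Maxillary_barbel against Mandibular_barbel shows how far libraries of like tissue lie apart. Of 23 members 2 (8.70%) were at least 2-fold higher in Maxillary_barbel, against 1.47% of all genes, and 1 (4.35%) in Mandibular_barbel, against 2.29%. Toward Maxillary_barbel these were inward rectifier 12-like (C0J45_23616, 1.58, from 3.92 and 0.639) and KCNQ1 (C0J45_21840, 1.54, from 9.01 and 2.43), and toward Mandibular_barbel BK beta-3-like (C0J45_05714, -1.01). With equal upper quartiles the split was 2 to 0 and with a pseudocount of 0.1 it was 2 to 3. The myelin and glia list stood at 4.34 in Maxillary_barbel and 2.52 in Mandibular_barbel, with 5 of 7 gene models at an FPKM of 1 in each, and its part was not tested. Differences of about 2-fold between other tissues are thus of a size that also occurs, in 3 of 23 members, between the barbels.

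**Figure D5:**
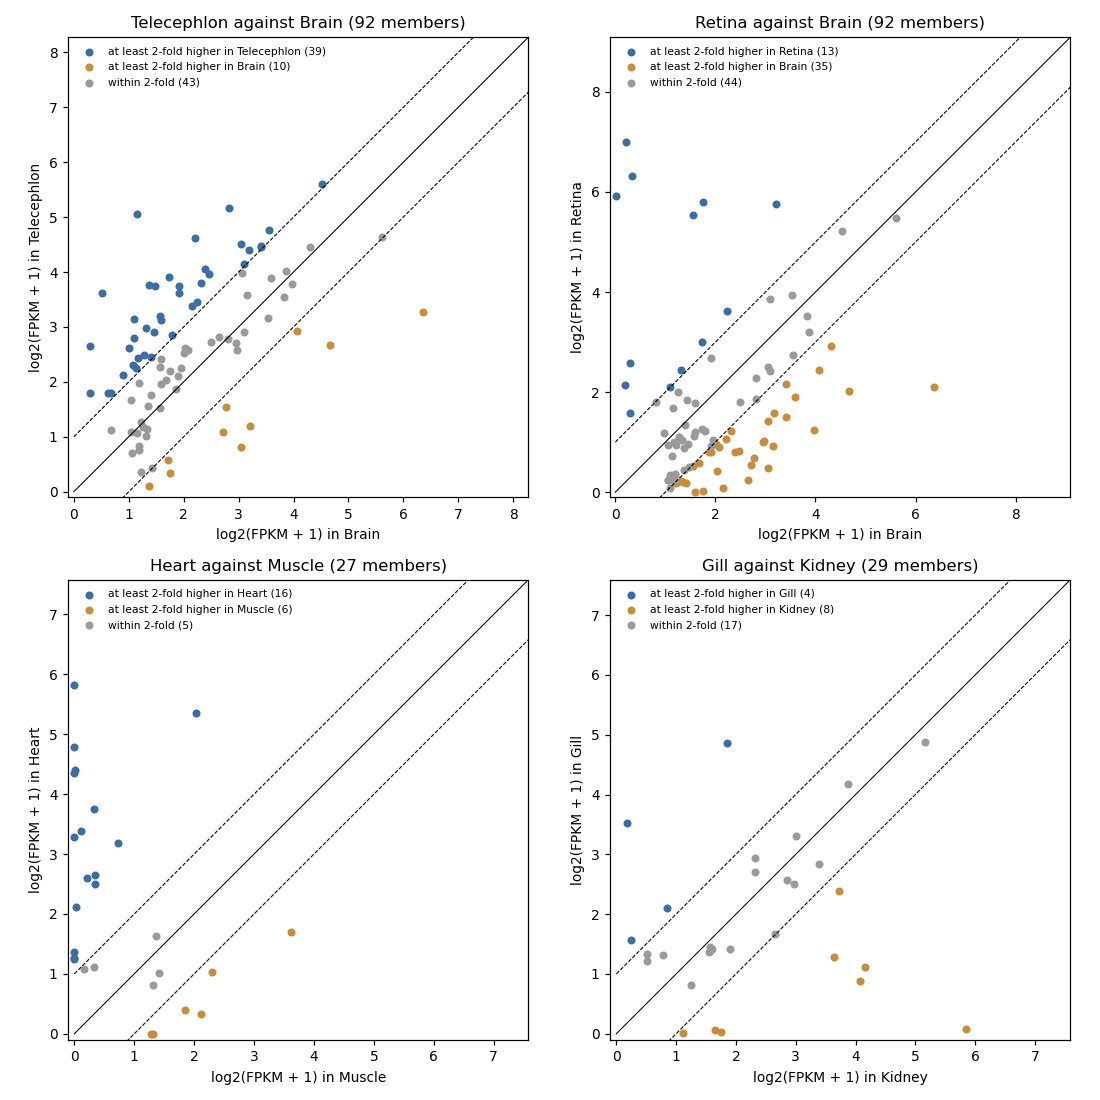
Each point is 1 member that reached an FPKM of 1 in a library of the pair, placed by its log2(FPKM + 1) in each, with the solid line at equality and the dashed lines at a 2-fold difference (blue, higher in the first-named library; ochre, higher in the second; grey, within 2-fold). Points above the band number 39 of 92 for Telecephlon against Brain, 13 of 92 for Retina against Brain, 16 of 27 for Heart against Muscle and 4 of 29 for Gill against Kidney.

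Copies with the same protein name were compared by their leading tissue. Endings such as -like, isoform and precursor were dropped first, so that KCNK2 and KCNK2-like, for example, counted as copies of 1 name. Of 28 names with at least 2 gene models at an FPKM of 1 or more, 7 had all copies highest in the same tissue and 21 had copies highest in different ones, and near-identical copies can share reads, so levels of single copies are uncertain. The same shares over all genes were not computed, and some leads were small, such as 0.14 log2 for Kv beta-2 (C0J45_16861). Some counted copies lie close together on the same strand, such as the KCNH2 models C0J45_04432 and C0J45_04434. The Kv beta-1 models C0J45_12020 and C0J45_12021 do so too. Whether such models are parts of 1 gene was not tested, so the count with different leading tissues may be too high. The same-tissue names included KCNV2 in Retina, KCNG3 and, in the values as deposited but not with equal upper quartiles, Kv beta-2 in Telecephlon, and KCNH4 and KCNH7 in Olfactory_bulb. Members also lay side by side on chromosomes. KCNA3-like, KCNA2 and KCNA10-like (C0J45_00555 to C0J45_00557) lie in a row on chromosome 1 from 16679316 to 16716395, and led in Olfactory_bulb, Brain and Brain, at 43.0, 1.22 and 2.37. Inward rectifier 15 (C0J45_10811) and GIRK2 (C0J45_10812) are neighbours on chromosome 11 with 58963 bases between them and led in Gill, at 17.1, and Olfactory_bulb, at 6.47. Neighbours of unlike type could thus lead in unlike tissues. The KCND3 models C0J45_15640 and C0J45_15641, adjacent on the same strand of chromosome 17, had alike levels (7.80 and 9.39 in Olfactory_bulb, 4.60 and 4.43 in Telecephlon, 1.42 and 1.25 in Brain), and whether they are parts of 1 gene was not tested. Of the 124 gene models 47 are marked partial, as are 11443 of all 25390.

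The ATP-sensitive channels work with sulfonylurea receptors of the ABCC type, which sense nucleotides. Inward rectifier 8 (C0J45_16334, chromosome 18 from 13208058 to 13210054) lies next to ABCC9 (C0J45_16333, chromosome 18 from 13120214 to 13203520), with 4537 bases between them. ABCC9 stood at 11.6 in Brain, 11.3 in Olfactory_bulb, 11.1 in Spleen and 5.33 in Heart, so Brain, Olfactory_bulb and Spleen were high tissues of both genes. Inward rectifier 11 (C0J45_09938, chromosome 10 from 13704717 to 13705862) lies near ABCC8 (C0J45_09936), with 1 gene model between them. ABCC8 stood at 18.5 in Brain, 18.1 in Telecephlon and 12.8 in Olfactory_bulb and at 0.455 in Muscle, where inward rectifier 11 was highest and ABCC9 stood at 2.57. In Muscle the levels of these neighbours therefore went apart. Among other partners, the Kv4 helper Kv channel-interacting protein 1b (C0J45_10512) stood at 74.5 in Telecephlon, 47.1 in Olfactory_bulb, 25.9 in Brain and 6.69 in Retina.

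Other genes of membrane excitability were also counted. For all genes the shares at least 1 log2 higher and lower in neural tissue were 29.6% and 3.38%. Of 59 calcium channel gene models 48 had a neural median at least 1 log2 above the other tissues and 0 the reverse, with a median difference of 2.01. Many of these models share a name, such as P/Q-type alpha-1A, and whether some are parts of 1 gene was not tested. Of 15 sodium channel gene models reaching an FPKM of 1 this held for 10, with a median difference of 2.33. It held for 5 of 7 gene models of HCN pacemaker channels (1.52), 13 of 17 of the sodium pump (4.72) and 13 of 14 of potassium channel partners (2.64). The members' median difference of 1.60 over 115 gene models lay above that of the HCN list and below those of the other lists. The all-gene median was 0.43.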

How the data were processed

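Poly(A) RNA from 18 tissues was sequenced as paired-end libraries, per the labels' protocols. The authors deposited FPKM per gene model, made with StringTie 1.3.4d per the submitters' processing notes. The aligner is not given in the sources used here, nor is the build. Coordinates are those of the deposited feature table. No sample was treated as a replicate of another. Members were found by protein name, joined by locus tag. Members, marker lists and excitability lists were chosen with earlier results of these data known, and protein names standing for list symbols were written after the tables were opened. Values were taken as log2(FPKM + 1), for genes reaching an FPKM of 1 in some tissue, or in a library of the pair. Members were named by rule: the leading members of each family (up to 3), the enriched ones, the highest of each tissue and the 3 largest ratios of each pair in each direction. Members named beyond this rule were chosen after their values were seen. Alternatives were a pseudocount of 0.1, no minimum, libraries scaled to equal sums or equal upper quartiles, no tetramerisation domain proteins, and no Skin or Muscle library. Python 3.11.15, numpy 2.4.6, pandas 2.3.3 and matplotlib 3.10.9 were used. The calls of Heart-enriched genes, of genes higher in neural tissue and of genes higher in Gill than in Kidney were tested on simulated data. Low levels were not simulated, and the other steps were not tested this way. Some results that the naming rule covers are not reported here.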

Additional observations from a re-analysis of the deposited data

How the results depend on the processing

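No paired analysis was possible because each tissue is 1 library. With a pseudocount of 0.1 in place of 1, 27 members in place of 63 had a tau of at least 0.85 (2240 of 22197 genes in place of 4641), and 5 in place of 3 members differed 2-fold between the barbels. The cause was not tested. The other member counts, taking both directions of a pair together, stayed within 1.5 times. This held for 8 of 10 with this pseudocount and 5 of 5 without the Skin and Muscle libraries. It held for 10 of 10 with no minimum, equal sums, equal upper quartiles or without the tetramerisation domain proteins. Counts in 1 direction moved further: with equal upper quartiles 22 in place of 39 members were higher in Telecephlon than in Brain and 10 in place of 6 higher in Muscle than in Heart, and with equal sums 7 in place of 4 were higher in Gill than in Kidney. The lead of the highest tissue over the next kept its side of 4-fold in enriched members and moved by under 1 log2 in the others for 52 of 53 named members under equal sums, 48 under equal upper quartiles and 52 under the pseudocount. Under equal upper quartiles 6 named members changed their highest tissue. The lead of GIRK1 (C0J45_12861) in Heart was 2.03 as deposited, 1.62 with equal sums and 0.90 with equal upper quartiles. The all-gene counts moved too. Genes higher in neural tissue numbered 6578 of 22197 as deposited, 9714 of 22378 with equal sums and 8990 of 22197 with the pseudocount of 0.1. For the members these counts were 77 of 115, 82 of 117 and 95 of 115. Genes highest in a neural tissue numbered 7614 of 22197 as deposited and 9757 of 22378 with equal sums, against 83 of 115 and 86 of 117 members. With 1 library per tissue no difference between tissues can be set against variation between fish. The values hold no counts, so no interval or lower limit of detection is given. By the estimated depth, Skin and Muscle were the shallowest libraries.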

Other observations

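The gene models named potassium inwardly-rectifying channel fell outside the word rule and are given here as values, 7 in all. Of the 5 named subfamily J member 1a, the type known in mammals as the secretory channel of the kidney tubule, C0J45_09067 stood at an FPKM of 27.4 in Kidney and at most 0.559 elsewhere. C0J45_12421 stood at 6.85 in Gill, 3.96 in Kidney and 2.19 in Mandibular_barbel. C0J45_12085 and C0J45_12086 stood at 4.98 and 2.91 in Mandibular_barbel, and C0J45_12413 at no more than 0.442 in any tissue. The member 11-like model C0J45_09626 was listed at 0 in Muscle and stood at 6.28 in Brain, 6.54 in Olfactory_bulb, 9.61 in Retina and 12.9 in Telecephlon. The member 2a model C0J45_07408 stood at 6.82 in Brain and 5.92 in Head_kidney.

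Among the other excitability genes, the sodium channel beta-4 model C0J45_11217 stood at 86.6 in Heart and the beta-3 model C0J45_11354 at 507 in Telecephlon. The HCN model C0J45_17668 stood at 13.5 in Heart and C0J45_23363 at 16.2 in Retina.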
